A study of Saccharomyces cerevisiae with 12 samples.

Results

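The nuclear genes of the respiratory chain and of the ATP synthase were examined in *tra1Q3* and *TRA1* yeast cells before and after chronological aging. They were picked by name from the table of 6691 genes, by complex, and number 43: 9 genes of complex III, 9 of complex IV, 2 of cytochrome c, 6 of complex II and its homologs, 14 of the ATP synthase and 3 of NADH dehydrogenases. Tra1 is the subunit through which the SAGA and NuA4 acetyltransferase complexes are brought to promoters by activators. The *tra1Q3* allele carries 3 changes of arginine to glutamine in or near what would be the nucleotide cleft of the PI3K domain of Tra1, a domain that is related to kinases but lacks residues needed to bind ATP.

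The libraries fall into 4 groups of 3. These are *tra1Q3* cells at day 0, *TRA1* cells at day 0, *tra1Q3* cells at day 3 and *TRA1* cells at day 3, all W303A and of mating type a by their labels, with the markers ura3-1, his3-11, leu2-3, trp1-1, can1-100 and ade2-1. Each carries its *TRA1* or *tra1Q3* as a FLAG-tagged allele integrated with *URA3* and a histidine marker. Both genotypes carry the plasmid YCplac111-*DED1pr-YHR100*. The *TRA1* cells are thus engineered controls and not the parent strain. The study describes day 3 cells as being 3 days into stationary phase, while its methods name only samples taken at day 0 and day 3. The study's methods state that day 0 cells had been diluted from saturated cultures into minus-leucine medium, while the labels name mid-log growth in synthetic complete medium. The aged *tra1Q3* libraries bear the replicate numbers 4, 2 and 3 and their values are given in that order. The study calls the 3 libraries of a group biological replicates, while the labels do not say whether they came from separate cultures. The p-values measure the spread between these libraries.

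In yeast, electrons from NADH enter the chain through single-polypeptide dehydrogenases, Ndi1 on the matrix side and Nde1 and Nde2 on the outer side, because this species has no proton-pumping complex I. Electrons from succinate enter through complex II. Complex III passes them from ubiquinol to cytochrome c and complex IV passes them to oxygen, and both pump protons that the ATP synthase lets back to make ATP. Many of these genes are repressed on glucose and induced when cells change to respiration, and the Hap2/3/4/5 complex, whose limiting subunit is Hap4, is the best known activator of that change.

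The libraries held 20662125 to 28079682 counts. All 43 genes passed the filter of at least 10 counts in 3 libraries in each comparison. Aged *TRA1* replicate 2 stood apart from replicates 1 and 3, with median absolute log2 differences per gene of 0.29 and 0.32, against 0.12 between replicates 1 and 3 and 0.063 to 0.087 within the other groups. The 7 a-specific genes, which mark MATa cells, summed to 62762 to 65928 normalized counts in *tra1Q3* cells and 27753 to 29594 in *TRA1* cells at day 0, and to 30934 to 38383 in *tra1Q3* cells and 7631 to 8742 in *TRA1* cells at day 3. The 4 alpha-specific genes summed to 19629 to 21610 normalized counts in *tra1Q3* cells and 1156 to 1203 in *TRA1* cells at day 0, and to 10985 to 13443 in *tra1Q3* cells and 2691 to 3136 in *TRA1* cells at day 3. At day 0, 4 of 4 alpha-specific and 7 of 7 a-specific genes were higher in *tra1Q3* cells, and at day 3 the numbers were 3 of 4 and 7 of 7, with 1 alpha-specific gene lower. None of these markers was at 0, and their part in the results was not tested.

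A normalized count is a count divided by the scaled size of its library and brought back to the mean library. That scaling was taken over all 12 libraries, and levels of different genes are compared per kb of coding length. The genotype fold changes were fitted with the scaling of the 6 libraries of that day. They therefore differ somewhat from ratios of the printed counts, mostly at day 3. The median log2 fold change over all genes at day 3 was -0.02 in that fit and -0.12 with all 12 libraries in one fit. A gene was called where its adjusted p was 0.05 or less (edgeR quasi-likelihood test, Benjamini-Hochberg over all genes tested). Since whole cultures were sequenced, fewer cells that express a gene and less RNA per cell cannot be told apart.

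The members together took up 1.18 to 1.24% of all counts in *tra1Q3* cells and 1.32 to 1.38% in *TRA1* cells at day 0. At day 3 the share was 2.56 to 2.63% in *tra1Q3* cells and 2.30 to 3.26% in *TRA1* cells, where the 3 libraries spread more widely. At day 0 the most abundant member per kb was *CYC1* in *tra1Q3* cells (39129 normalized counts per kb) and *QCR6* in *TRA1* cells (32553). At day 3 it was *QCR8* in *tra1Q3* cells (134836) and *COX7* in *TRA1* cells (95345). *NDE2* (YDL085W), the gene of an external NADH dehydrogenase, was the least abundant at day 0, with 218 in *tra1Q3* cells and 209 in *TRA1* cells.

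At day 0 the members differed little between the genotypes. Of the 43 members, 9 were higher in *tra1Q3* cells, 19 were lower and 15 were not called, while 35.0% of all 6126 genes tested were higher and 33.7% were lower. The median log2 fold change (*tra1Q3* over *TRA1*) of the members was -0.06, beside 0.01 over all genes. Only *COX5B* passed a fold change of 2, a call that 2.76% of all genes met in the lower direction. The median of the members lay at -0.14 when library totals replaced TMM scaling, and 7 members were then higher and 24 lower.

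*COX5B* (YIL111W) encodes the isoform of complex IV subunit V that is used at low oxygen, and *COX5A* encodes the isoform of aerobic cells. *COX5B* had 1234, 1370 and 1246 normalized counts in *tra1Q3* cells, against 2529, 2791 and 2625 in *TRA1* cells. The groups were far apart, with a log2 fold change of -1.05 ± 0.05 (SE, n = 3 each, edgeR adjusted p = 2.6e-12). *COX5A* (YNL052W) had 8953, 10244 and 9978 in *tra1Q3* cells and 9505, 9214 and 9205 in *TRA1* cells, and these overlapped.

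In complex III at day 0, *RIP1*, the Rieske iron-sulfur protein, was the 1 gene of 9 that was higher in *tra1Q3* cells (log2 fold change 0.32), and 4 were lower, the lowest being the core subunit *QCR2* (-0.39). In complex IV 4 of 9 were higher, with *COX7* at 0.26, and 3 were lower, with *COX8* at -0.43. Apart from *COX5B*, all of these differences were under 2-fold.

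Both genes of cytochrome c were higher in *tra1Q3* cells at day 0. *CYC1* (YJR048W), which encodes the main form, had 12619, 12594 and 13525 normalized counts in *tra1Q3* cells, against 9384, 9442 and 9259 in *TRA1* cells (log2 fold change 0.47 ± 0.04, SE). *CYC7* (YEL039C), which encodes the minor form, had 3253, 3692 and 3287 in *tra1Q3* cells, against 2256, 2507 and 2799 in *TRA1* cells (0.44 ± 0.06). Neither gene overlapped between the genotypes. *INH1* (YDL181W) encodes the small protein that keeps the ATP synthase from running backwards, and it was the lowest of the ATP synthase class, with a log2 fold change of -0.85 ± 0.05. *NDI1* (YML120C), the internal NADH dehydrogenase, was also lower, with 6334, 6442 and 6421 in *tra1Q3* cells against 9435, 9532 and 9477 in *TRA1* cells (-0.57 ± 0.04). In the ATP synthase class 1 of 14 genes was higher (*ATP7*, a peripheral stalk subunit, 0.21) and 7 were lower.

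The catalytic parts of complex II, *SDH1* (flavoprotein) and *SDH2* (iron-sulfur protein), were lower in *tra1Q3* cells at day 0 by log2 fold changes of -0.32 and -0.24. Its membrane anchors went in opposite directions. *SDH3* (YKL141W) had 4494, 4598 and 4379 normalized counts in *tra1Q3* cells, against 3569, 3925 and 3598 in *TRA1* cells (log2 fold change 0.28 ± 0.04, higher). *SDH4* (YDR178W) had 2580, 2658 and 2639 in *tra1Q3* cells, against 3579, 3847 and 3635 in *TRA1* cells (-0.49 ± 0.04, lower).

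**Figure D1:**
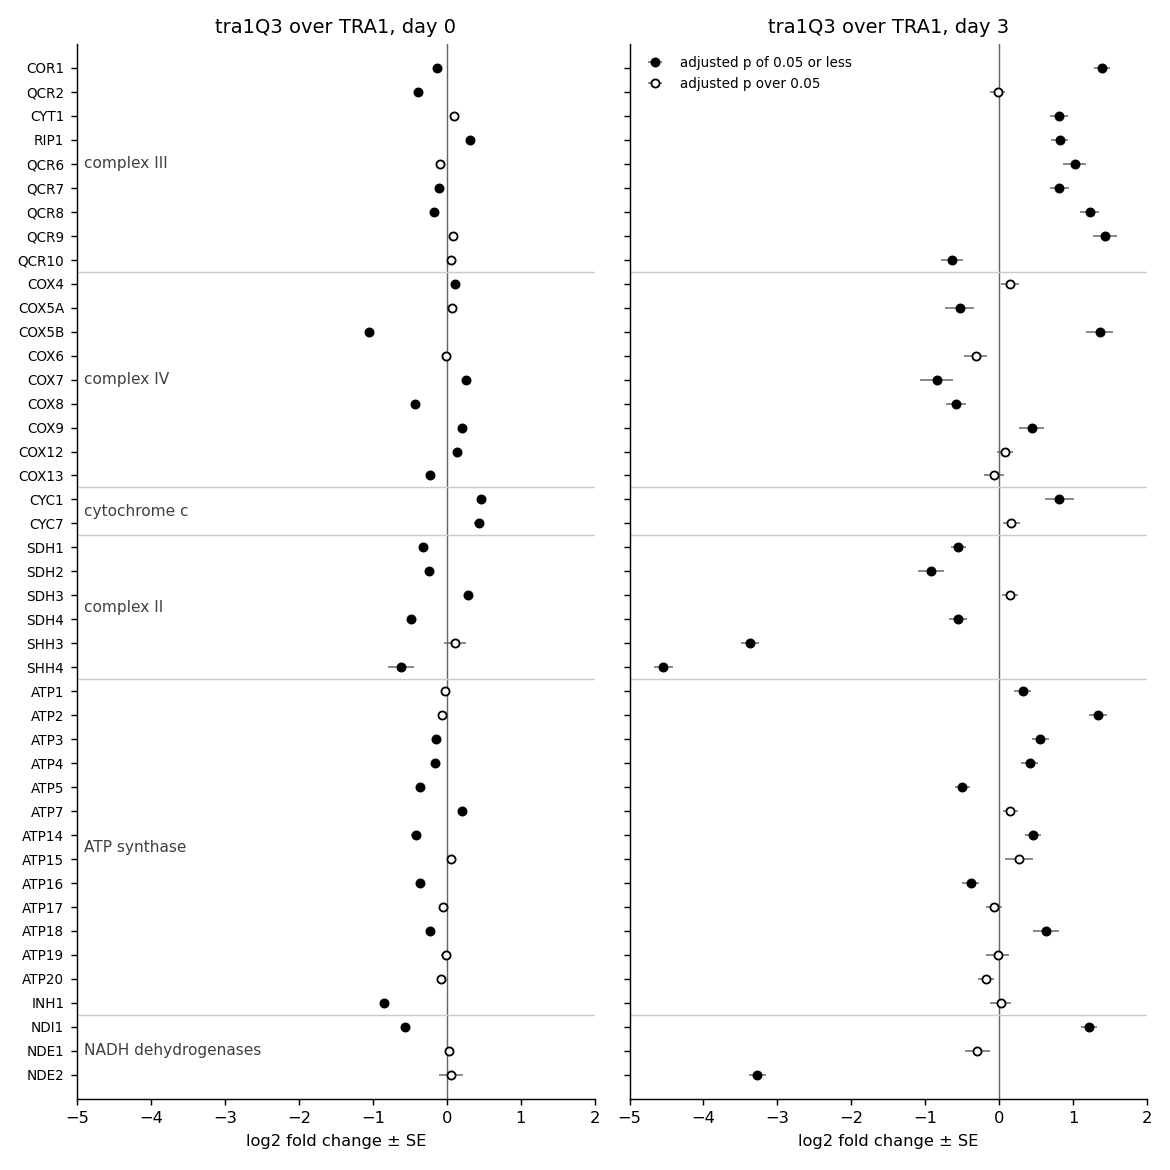
Log2 fold change (tra1Q3 over TRA1) with its standard error for the 43 members at day 0 (left) and day 3 (right), by complex, with filled points for an adjusted p of 0.05 or less. At day 0 all values lie between -1.05 and 0.47, while at day 3, 7 of the 9 genes of complex III lie at 0.81 or above and SHH3, SHH4 and NDE2 lie at -3.27 or below.

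At day 3 the complexes parted. Of the 43 members, 17 were higher in aged *tra1Q3* cells, 12 were lower and 14 were not called, while 35.1% of all 6208 genes tested were higher and 36.4% were lower. The median log2 fold change of the members was 0.14, beside -0.02 over all genes. The share of members called was thus near that of all genes. Over 2-fold, 7 of the 43 members were higher (*COR1*, *QCR6*, *QCR8*, *QCR9*, *COX5B*, *ATP2* and *NDI1*), a share near the 16.4% of all genes. In the lower direction 3 of the 43 passed 2-fold (*SHH3*, *SHH4* and *NDE2*), a smaller share than the 15.6% of all genes.

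One of the scalings tried changed this split. It was 17 higher and 12 lower with DESeq2 size factors, and 16 higher and 12 lower with the upper quartile. With library totals, which moved the median of all genes at day 3 to -0.31, 10 members were higher and 17 were lower, and the median of the members was -0.16. Without aged *TRA1* replicate 2 the numbers were 19 higher and 14 lower. The 10 members that passed 2-fold were called in the same direction in every alternative tried. *QCR6* (YFR033C) was under 2-fold without aged *TRA1* replicate 3 (0.89), with all 12 libraries in one fit (0.92), with the upper quartile (0.998) and with library totals (0.71). With library totals *QCR8* (0.93) and *NDI1* (0.92) were under 2-fold as well.

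Complex III was the class with the largest share of higher members at day 3, 7 of 9. *COR1* (YBL045C), which encodes a core subunit, had 37625, 39976 and 38278 normalized counts in *tra1Q3* cells, against 16154, 16583 and 14737 in *TRA1* cells. That is a log2 fold change of 1.39 ± 0.11 (SE, n = 3 each, edgeR adjusted p = 3.4e-05). *QCR9* (YGR183C), a small membrane subunit, had 18351, 18379 and 18390 in *tra1Q3* cells, against 7621, 8699 and 5594 in *TRA1* cells (1.43 ± 0.16). The *tra1Q3* libraries were almost equal for this gene, while the *TRA1* libraries spread and all lay below them.

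*QCR8* (YJL166W), another small subunit, had 38336, 38886 and 38062 normalized counts in *tra1Q3* cells, against 19978, 17297 and 15749 in *TRA1* cells (log2 fold change 1.22 ± 0.13). *QCR6*, the acidic hinge protein, had 55867, 55713 and 53758 in *tra1Q3* cells, against 30089, 33485 and 23954 in *TRA1* cells (1.02 ± 0.15). The redox subunits *CYT1* (cytochrome c1) and *RIP1* were higher by smaller values, 0.81 and 0.82, and so was *QCR7*, a small subunit, by 0.81. The exceptions were *QCR2*, the other core subunit, at -0.02 ± 0.10 and not called, and *QCR10*. *QCR10* (YHR001W-A), a small subunit that yeast can do without, was lower, with 10290, 10915 and 9986 in *tra1Q3* cells against 17214, 20803 and 13955 in *TRA1* cells (-0.64 ± 0.15, adjusted p = 0.0069).

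**Figure D2:**
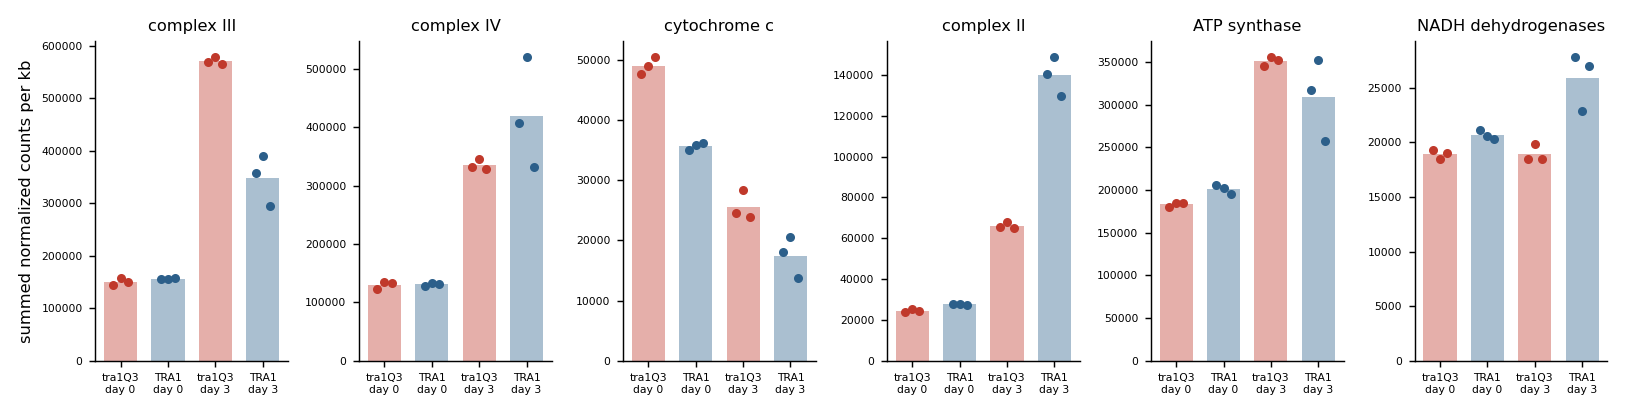
Summed normalized counts per kb of the members of each class, with a point for each library and a bar for the mean of 3 libraries, tra1Q3 in red and TRA1 in blue. At day 3 the sums of complex III are 564217 to 579098 per kb in tra1Q3 cells and 295380 to 388770 in TRA1 cells, and those of complex II, SHH3 and SHH4 included, are 64898 to 67780 in tra1Q3 cells and 129894 to 148995 in TRA1 cells.

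Complex II was the opposite case, with 0 of 6 genes higher and 5 lower at day 3. *SDH2* (YLL041C) had 19105, 19901 and 19221 normalized counts in *tra1Q3* cells, against 35090, 50377 and 32776 in *TRA1* cells (log2 fold change -0.92 ± 0.18). The *TRA1* values spread because replicate 2 was high, and without that library the call held. *SDH1* was lower by -0.56 and *SDH4* by -0.56, with 6319, 6627 and 5946 for *SDH4* in *tra1Q3* cells against 10957, 8481 and 10453 in *TRA1* cells. *SDH3* overlapped between the genotypes, with 12133, 12981 and 12010 in *tra1Q3* cells and 13412, 11128 and 11506 in *TRA1* cells (0.14 ± 0.11, adjusted p = 0.27).

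The homologs of the anchors showed the greatest differences of all members. *SHH3* (YMR118C) is a paralog of *SDH3* and *SHH4* is a paralog of *SDH4* whose product can take the place of the anchor in complex II. *SHH3* had 1373, 1171 and 1440 normalized counts in *tra1Q3* cells, against 15532, 14409 and 14070 in *TRA1* cells (log2 fold change -3.37 ± 0.12, edgeR adjusted p = 3.0e-06). *SHH4* (YLR164W) had 311, 326 and 400 in *tra1Q3* cells, against 8546, 9117 and 8215 in *TRA1* cells (-4.54 ± 0.13, adjusted p = 3.0e-06). By the fitted fold change the *tra1Q3* level of *SHH4* was 0.0429 of the *TRA1* level. *NDE2* differed by a like amount, with 2011, 2023 and 2226 in *tra1Q3* cells against 21827, 19807 and 23177 in *TRA1* cells (-3.27 ± 0.12, adjusted p = 3.0e-06).

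The other NADH dehydrogenases did not follow *NDE2*. *NDI1* had 18594, 19784 and 18528 normalized counts in *tra1Q3* cells, against 9526, 8289 and 8500 in *TRA1* cells (log2 fold change 1.21 ± 0.10, adjusted p = 4.6e-05). *NDE1* (YMR145C), the other external enzyme, had 8774, 9766 and 8588 in *tra1Q3* cells and 14084, 9150 and 12430 in *TRA1* cells, and the groups overlapped (-0.30 ± 0.17, adjusted p = 0.14). *NDE1* was called lower without aged *TRA1* replicate 2 (-0.46, adjusted p = 0.00011), with all 12 libraries in one fit (-0.39, adjusted p = 0.014) and with library totals (-0.58, adjusted p = 0.0050).

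**Figure D3:**
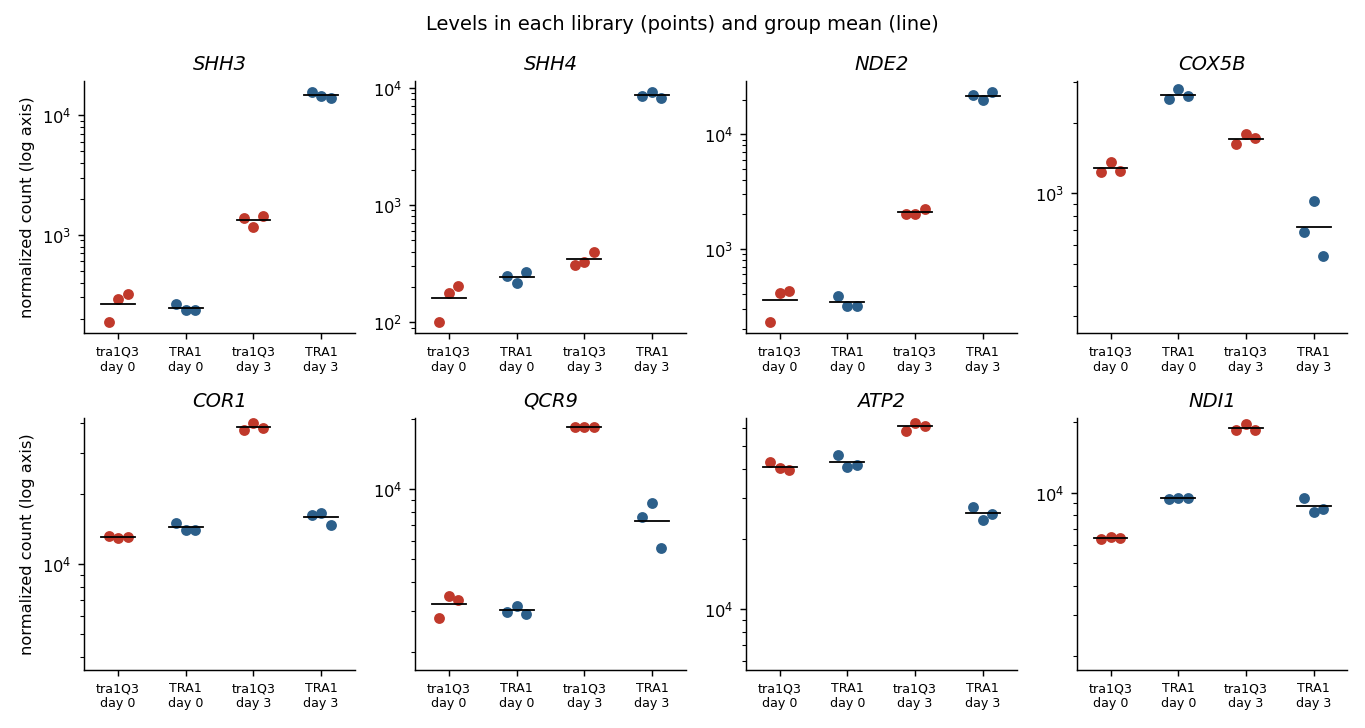
Normalized counts (log axis, each panel with its own range) of 8 members in each library, with a line at the mean of each group of 3, tra1Q3 in red left of TRA1 in blue at each day. SHH3, SHH4 and NDE2 are highest in aged TRA1 cells, COX5B is lower in tra1Q3 cells at day 0 and higher at day 3, and COR1, QCR9, ATP2 and NDI1 are highest in aged tra1Q3 cells.

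Complex IV had 2 of 9 members higher and 3 lower at day 3. *COX5B* was the higher one by over 2-fold, with 1625, 1796 and 1732 normalized counts in *tra1Q3* cells against 683, 929 and 542 in *TRA1* cells (log2 fold change 1.36 ± 0.18, adjusted p = 0.00044). Its aerobic partner *COX5A* had 22917, 23695 and 22602 in *tra1Q3* cells, against 33183, 46554 and 27982 in *TRA1* cells (-0.54 ± 0.19, adjusted p = 0.036). The isoforms thus moved in opposite directions, although the call of *COX5A* was lost without aged *TRA1* replicate 1 (adjusted p = 0.057) and without any 1 of the aged *tra1Q3* libraries. *COX7* (YMR256C), a small membrane subunit, was the lowest of the class, with 8942, 9109 and 9051 in *tra1Q3* cells against 16121, 23917 and 12306 in *TRA1* cells (-0.85 ± 0.22).

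*COX8*, also a small membrane subunit, was lower too (-0.58), and *COX9* was higher (0.44, adjusted p = 0.048). The call of *COX9* was lost without any 1 library other than aged *TRA1* replicate 2, and its groups overlapped. *COX4*, *COX6*, *COX12* and *COX13* were not called at day 3, with log2 fold changes between -0.32 and 0.15.

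The forms of cytochrome c did not differ alike at day 3. *CYC1* had 6390, 7735 and 6057 normalized counts in *tra1Q3* cells, against 4034, 5235 and 3038 in *TRA1* cells (log2 fold change 0.81 ± 0.20, adjusted p = 0.0075). With library totals *CYC1* was not called (0.50, adjusted p = 0.10). *CYC7* had 1804, 1695 and 1875 in *tra1Q3* cells and 1988, 1609 and 1550 in *TRA1* cells, which overlapped (0.16 ± 0.12, adjusted p = 0.24).

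In the ATP synthase 6 of 14 genes were higher at day 3 and 2 were lower. With library totals only *ATP2* of these 6 was called higher (*ATP1* 0.026, *ATP3* 0.25, *ATP4* 0.11, *ATP14* 0.15 and *ATP18* 0.32 were not called), and *ATP17* (-0.37) and *ATP20* (-0.47) were called lower. *ATP2* (YJR121W), the catalytic beta subunit of the F1 head, had 58198, 63034 and 60974 normalized counts in *tra1Q3* cells, against 27435, 24209 and 25523 in *TRA1* cells (log2 fold change 1.34 ± 0.12, adjusted p = 6.7e-05). Its partner *ATP1*, the alpha subunit, was higher by 0.31 only (adjusted p = 0.044), and that call was lost without any 1 library other than aged *TRA1* replicate 2. *ATP3*, the gamma subunit of the central rotor, was higher by 0.55, whereas *ATP16*, the delta subunit of the same rotor, was lower by -0.39 (adjusted p = 0.016) and lost its call without any 1 of the aged *tra1Q3* libraries. *ATP15*, the epsilon subunit, was not called (0.27), but was higher without aged *TRA1* replicate 2 (0.46, adjusted p = 0.0022).

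Of the 4 genes of the peripheral stalk, *ATP4* (0.41) and *ATP14* (0.46) were higher, *ATP7* was not called (0.15) and *ATP5* was the lowest of the class. *ATP5* (YDR298C) had 4278, 5043 and 4370 normalized counts in *tra1Q3* cells, against 6885, 7540 and 6307 in *TRA1* cells (log2 fold change -0.50 ± 0.10). The call of *ATP4* was lost without aged *tra1Q3* replicate 2 (adjusted p = 0.060) or 3 (0.056). Among the small subunits of the membrane part *ATP18* was higher (0.63) and *ATP17*, *ATP19* and *ATP20* were not called. *INH1*, low in *tra1Q3* cells at day 0, did not pass the test at day 3 (0.02 ± 0.14).

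The upstream sequences of 7 of these members are given because they stand for both patterns at day 3, 4 that were over 2-fold higher and 3 that were over 2-fold lower in *tra1Q3* cells. Each run is 250 bases, from 350 to 101 bases before the start codon, on the coding strand of the S288C genome (RefSeq, build R64). Capitals mark CCAAT (the sequence that the Hap2/3/4/5 complex binds), the consensus site of Hap1, ATTGTT (the core that the repressor Rox1 binds) and CCCCT (the stress response element), each searched on both strands.
QCR6: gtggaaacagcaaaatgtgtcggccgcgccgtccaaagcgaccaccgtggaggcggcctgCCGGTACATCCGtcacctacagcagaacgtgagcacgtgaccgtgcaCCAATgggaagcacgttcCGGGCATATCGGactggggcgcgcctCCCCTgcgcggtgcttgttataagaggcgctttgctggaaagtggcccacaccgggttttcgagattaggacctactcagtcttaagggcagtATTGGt
QCR8: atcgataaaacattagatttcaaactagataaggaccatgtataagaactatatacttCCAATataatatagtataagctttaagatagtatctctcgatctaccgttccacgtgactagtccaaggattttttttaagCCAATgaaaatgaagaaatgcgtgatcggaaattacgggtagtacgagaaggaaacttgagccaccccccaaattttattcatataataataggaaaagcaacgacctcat
QCR9: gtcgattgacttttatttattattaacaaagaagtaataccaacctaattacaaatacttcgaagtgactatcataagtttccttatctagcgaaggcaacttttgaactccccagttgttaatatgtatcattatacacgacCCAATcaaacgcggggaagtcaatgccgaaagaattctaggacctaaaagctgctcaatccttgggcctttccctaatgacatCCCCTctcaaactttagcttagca
COX5B: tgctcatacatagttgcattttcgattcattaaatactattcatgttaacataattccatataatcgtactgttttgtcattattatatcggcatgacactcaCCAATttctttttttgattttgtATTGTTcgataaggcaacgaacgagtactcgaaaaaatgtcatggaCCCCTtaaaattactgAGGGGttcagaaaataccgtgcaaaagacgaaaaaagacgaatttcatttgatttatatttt
SHH3: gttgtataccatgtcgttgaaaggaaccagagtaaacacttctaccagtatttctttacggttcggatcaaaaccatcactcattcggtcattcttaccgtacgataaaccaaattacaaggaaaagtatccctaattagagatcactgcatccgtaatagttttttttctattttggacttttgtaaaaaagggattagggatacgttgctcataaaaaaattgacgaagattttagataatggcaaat
SHH4: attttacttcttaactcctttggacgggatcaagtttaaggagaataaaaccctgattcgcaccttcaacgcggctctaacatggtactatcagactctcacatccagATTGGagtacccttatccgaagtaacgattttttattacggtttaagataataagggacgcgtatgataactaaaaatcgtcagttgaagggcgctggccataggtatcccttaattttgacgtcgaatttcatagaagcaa
NDE2: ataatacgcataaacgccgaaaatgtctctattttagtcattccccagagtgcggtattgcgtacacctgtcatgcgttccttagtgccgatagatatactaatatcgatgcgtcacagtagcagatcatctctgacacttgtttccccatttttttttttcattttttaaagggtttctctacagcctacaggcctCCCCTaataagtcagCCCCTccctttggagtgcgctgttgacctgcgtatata

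These windows are chrVI:224870-225119 (minus strand) for *QCR6*, chrX:106084-106333 (plus) for *QCR8*, chrVII:859577-859826 (minus) for *QCR9*, chrIX:154872-155121 (plus) for *COX5B*, chrXIII:502835-503084 (minus) for *SHH3*, chrXII:493533-493782 (plus) for *SHH4* and chrIV:302861-303110 (plus) for *NDE2*. The one of *QCR6* runs into the coding sequence of a neighbouring gene, YFR034C. In the whole 500 bases before the start codon, CCAAT was found in 38 of the 43 members (88.4%) and in 62.5% of 5987 genes. It was in 7 of the 7 members that were over 2-fold higher at day 3, in 30 of the 33 that passed 2-fold in neither direction and in 1 of the 3 that were over 2-fold lower, which is *SHH4*.

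The other motifs were less common in the members. The consensus site of Hap1, searched by its name, was in *QCR6* alone among the members, and in 0.351% of all genes. Its matches in *QCR6* begin 290 and 225 bases before the start codon. The match that begins at 290 lies inside the coding sequence of the neighbouring gene YFR034C. ATTGTT was in 24 members (55.8%), against 48.9% of all genes. Several members held more than a single match, *COX5B*, *COX6* and *ATP18* among them. By the day 3 difference, ATTGTT was in 4 of the 7 members over 2-fold higher and in 1 of the 3 over 2-fold lower. It was in 19 of the 33 that passed 2-fold in neither direction. CCCCT was in 21 members (48.8%), against 34.1% of all genes, and among the printed windows *NDE2* held a pair of matches and *COX5B* another pair. The stress response element was in 6 of the 7 members over 2-fold higher at day 3. It was in 14 of the 33 that passed 2-fold in neither direction and in 1 of the 3 over 2-fold lower. Differences in motif content between these groups were not tested. The carbon source response element, which the activators Cat8 and Sip4 bind, was matched in 0 members and in 0.434% of all genes. A single match of CCAAT overlapped one of ATTGTT in the members, and no other motifs overlapped. A match is a description of the letters and not a site of binding.

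The balance between isoforms was also taken as a ratio within each library, which does not depend on scaling between libraries. *COX5A* over *COX5B*, per kb of coding length, was 7.16, 7.38 and 7.90 in *tra1Q3* cells at day 0, against 3.71, 3.26 and 3.46 in *TRA1* cells. At day 3 it was 13.9, 13.02 and 12.9 in *tra1Q3* cells, against 47.9, 49.5 and 50.9 in *TRA1* cells. The order of the genotypes was therefore opposite on the days, with no overlap on either day (exact permutation test, two-sided, p = 0.1, the smallest that 3 against 3 can give, and 0.2 when adjusted over 10 tests).

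At day 3 the ratios that involve the *SHH* genes and *NDE2* were also apart. *SDH3* over *SHH3* was 8.75, 11.0 and 8.26 in *tra1Q3* cells, against 0.855, 0.765 and 0.810 in *TRA1* cells. *SDH4* over *SHH4* was 18.9, 18.9 and 13.8 in *tra1Q3* cells, against 1.19, 0.864 and 1.18 in *TRA1* cells. In aged *TRA1* cells the paralogs were thus about as abundant as the main anchors. *NDE1* over *NDE2* was 4.25, 4.70 and 3.76 in *tra1Q3* cells, against 0.628, 0.450 and 0.522 in *TRA1* cells, so that *NDE2* was the more abundant external dehydrogenase in aged *TRA1* cells alone. Each of these had an exact permutation p of 0.1. *CYC1* over *CYC7* overlapped at day 0 and at day 3 (exact p = 0.8 and 0.2).

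**Figure D4:**
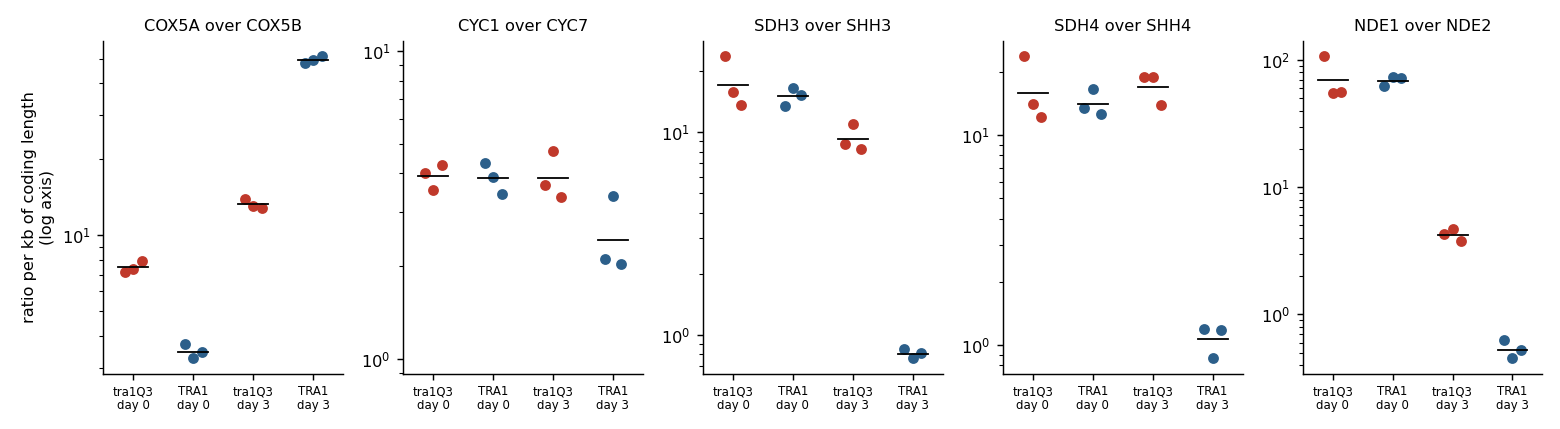
Ratio of the main isoform to its alternative per kb of coding length (log axis, each panel with its own range) in each library, with a line at the geometric mean of each group of 3, tra1Q3 in red left of TRA1 in blue at each day. The ratio of COX5A to COX5B is higher in tra1Q3 cells at day 0 (7.16 to 7.90 against 3.26 to 3.71 in TRA1 cells) and lower at day 3 (12.9 to 13.9 against 47.9 to 50.9).

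The change with age was taken as day 3 over day 0 in each genotype. A rise or fall is relative to the other genes of the library, and the counts do not give the amount of RNA per cell. In *tra1Q3* cells 36 of the 43 members rose and 4 fell, while 40.9% of all 6247 genes rose and 42.1% fell. In *TRA1* cells 33 members rose and 6 fell, while 41.5% of all genes rose and 39.8% fell. The median log2 change was 1.24 in *tra1Q3* cells and 0.88 in *TRA1* cells, beside -0.01 and 0.03 over all genes. Over 2-fold, 24 members rose in *tra1Q3* cells (22.7% of all genes) and 20 rose in *TRA1* cells (20.1%). Over 2-fold in the other direction, 1 member fell in *tra1Q3* cells (*NDE1*, beside 23.4% of all genes) and 3 fell in *TRA1* cells (*COX5B*, *CYC1* and *NDE1*, beside 19.8%).

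Most of complex III and complex II rose with age in both genotypes. All 9 complex III genes rose in *tra1Q3* cells and 8 of 9 in *TRA1* cells, where *COR1* was not called (0.14 ± 0.07). All 6 complex II genes rose in both. *COX13*, a regulatory subunit of complex IV, rose by nearly the same amount, 2.35 in *tra1Q3* cells and 2.30 in *TRA1* cells. Both genes of cytochrome c fell in both genotypes, *CYC1* by a log2 change of -0.94 in *tra1Q3* cells and -1.19 in *TRA1* cells. *NDE1* fell as well, by -1.44 in *tra1Q3* cells and -1.02 in *TRA1* cells, and *ATP5* fell by -0.47 in *tra1Q3* cells and -0.23 in *TRA1* cells. The fall of *ATP5* in *TRA1* cells was not called without *TRA1* day 0 replicate 1 (adjusted p = 0.059) or 2 (0.059) or aged *TRA1* replicate 3 (0.068).

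The difference between the age changes, *tra1Q3* minus *TRA1*, was tested as an interaction. It was higher for 16 members and lower for 10, while 29.7% of all genes were higher and 39.0% were lower. The median was -0.06 for the members and -0.15 over all genes. Over 2-fold, 7 were higher (13.6% of all genes), *COR1*, *QCR6*, *QCR8*, *QCR9*, *COX5B*, *ATP2* and *NDI1*, and 4 were lower (17.9%), *COX7*, *SHH3*, *SHH4* and *NDE2*. In complex III 8 of 9 members had a larger change in *tra1Q3* cells, the exception being *QCR10*, and in complex II 4 of 6 had a smaller one.

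*COX5B* changed in opposite directions, with a log2 change of 0.42 ± 0.15 in *tra1Q3* cells (adjusted p = 0.018) and -1.88 ± 0.15 in *TRA1* cells. The interaction was 2.30 ± 0.21 (edgeR adjusted p = 1.5e-06), and the rise in *tra1Q3* cells by itself was not called when *tra1Q3* day 0 replicate 1 or 3 or aged *tra1Q3* replicate 2 was left out. *ATP2* likewise rose in *tra1Q3* cells (0.57 ± 0.09) and fell in *TRA1* cells (-0.73 ± 0.09). *NDI1* rose in *tra1Q3* cells (1.57 ± 0.07) and was not called in *TRA1* cells (-0.11 ± 0.07), and the difference itself was 1.68 ± 0.09 (adjusted p = 3.9e-08).

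*SHH3*, *SHH4* and *NDE2* rose in both genotypes, but less in *tra1Q3* cells. *SHH3* rose by 2.32 ± 0.16 on the log2 scale in *tra1Q3* cells and 5.91 ± 0.18 in *TRA1* cells. *SHH4* rose by 1.12 ± 0.20 in *tra1Q3* cells and 5.14 ± 0.20 in *TRA1* cells. *NDE2* rose by 2.55 ± 0.19 in *tra1Q3* cells and 5.98 ± 0.21 in *TRA1* cells. The interactions were -3.58, -4.02 and -3.43 (adjusted p = 7.5e-08, 1.5e-07 and 3.7e-07).

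The day 0 libraries of *tra1Q3* cells were not alike for these genes. *SHH3* had 189, 290 and 320 normalized counts in *tra1Q3* replicates 1, 2 and 3 at day 0, against 263, 235 and 235 in *TRA1* cells. *SHH4* had 101, 176 and 202 in *tra1Q3* cells, against 248, 216 and 268 in *TRA1* cells. *NDE2* had 232, 415 and 425 in *tra1Q3* cells, against 391, 317 and 319 in *TRA1* cells. Replicates 2 and 3 exceeded replicate 1 by 0.692 to 1.17% of the mean level of aged *TRA1* cells in each of the 3 genes, and the source of the excess was not tested.

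The day 0 comparison of these genes turned on these libraries. Without *tra1Q3* replicate 1, *SHH3* (0.32) and *NDE2* (0.30) were called higher in *tra1Q3* cells. With *tra1Q3* replicate 1 as the only *tra1Q3* library at day 0, assumed to vary like the rest, the day 0 log2 fold changes were -0.37 for *SHH3* (0.12 with all 3), -1.26 for *SHH4* (-0.62) and -0.56 for *NDE2* (0.05). All 3 were then called lower, whereas with all 3 libraries only *SHH4* was (adjusted p = 0.0046, and 0.059 with DESeq2). The rises with age in *tra1Q3* cells were then 2.82, 1.77 and 3.17, and the interactions -3.09, -3.38 and -2.81, each still called. This setting was chosen after the values had been seen.

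**Figure D5:**
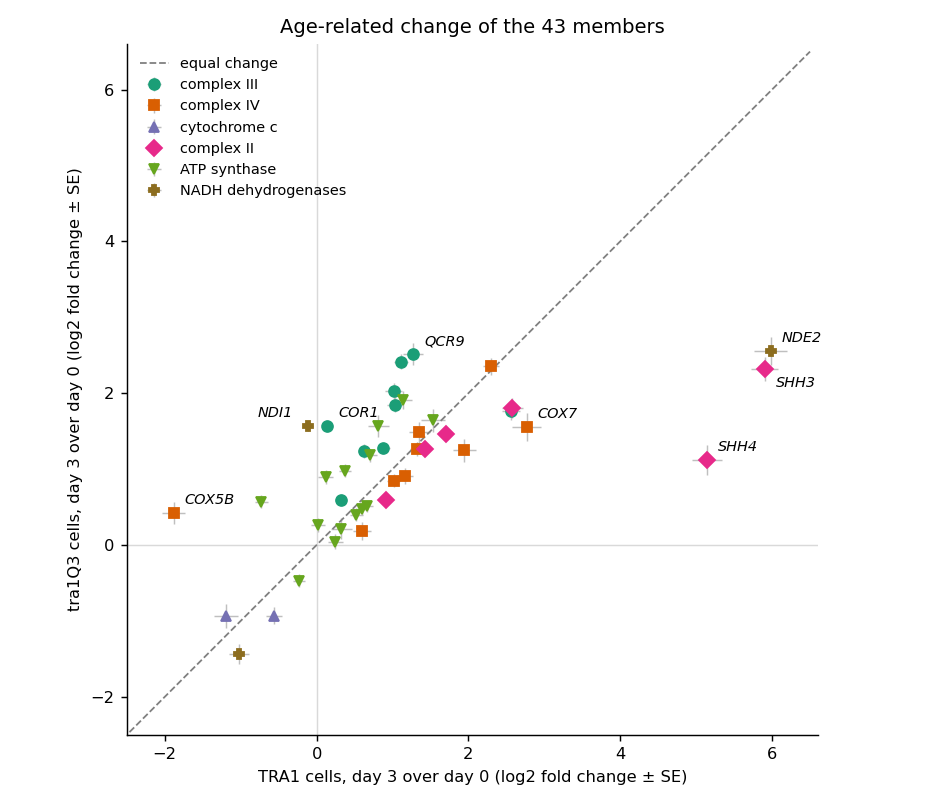
Log2 change from day 0 to day 3 of the 43 members in tra1Q3 cells (vertical) and in TRA1 cells (horizontal), with standard errors, by class, and a dashed line where the changes are equal. SHH3, SHH4 and NDE2 lie far below the line (2.32, 1.12 and 2.55 in tra1Q3 cells against 5.91, 5.14 and 5.98 in TRA1 cells), and COX5B, NDI1, COR1 and QCR9 lie above it.

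Genes that regulate or assemble these complexes were described beside the members. *HAP4* had 34495, 37593 and 36145 normalized counts in *tra1Q3* cells at day 3, against 9305, 11055 and 7779 in *TRA1* cells (log2 fold change 2.04 ± 0.15, adjusted p = 2.5e-05). At day 0 it was lower, with 6080, 6243 and 6215 in *tra1Q3* cells against 8293, 8985 and 9328 in *TRA1* cells (-0.52 ± 0.04). *HAP3*, a DNA-binding subunit of the same complex, was higher at day 3 (1.20), *HAP5* was lower (-0.43) and *HAP2* was not called (-0.18).

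*ROX1* encodes a heme-induced repressor of genes used at low oxygen, and *COX5B* is one of its known targets. It had 2107, 2286 and 2053 normalized counts in *tra1Q3* cells at day 3, against 5582, 6575 and 4564 in *TRA1* cells (log2 fold change -1.28 ± 0.14). At day 0 it was higher, with 3768, 3755 and 3500 in *tra1Q3* cells against 2024, 2141 and 2311 in *TRA1* cells (0.77 ± 0.05). On each day its sign was opposite to that of *COX5B*, and a dependence of one on the other was not tested. *HAP1*, a heme-dependent activator, was not called on either day (-0.06 at day 0 and 0.20 at day 3).

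The counts in the lists that follow stand beside 35.1% of all genes higher and 36.4% lower at day 3. Among the assembly genes 13 of 22 for complex IV were higher at day 3 and 3 were lower, and 4 of 6 for complex III were higher and 0 lower. At day 0 the numbers were 11 higher and 10 lower for complex IV, and 5 higher and 1 lower for complex III. Of all genes 35.0% were higher and 33.7% lower at day 0. The largest differences at day 3 were *MSS51* (1.70), which is needed to translate the mRNA of Cox1, *CYT2* (0.99), which attaches heme to cytochrome c1, and *TCM62* (1.32), a chaperone-like protein of complex II assembly. *ATP11*, the chaperone of the beta subunit of F1, had 5527, 5533 and 5751 normalized counts in *tra1Q3* cells against 1330, 1711 and 1295 in *TRA1* cells (2.06 ± 0.12). The list of ATP synthase assembly had 5 of 9 higher and 2 lower, and that of complex II assembly 2 of 5 higher and 2 lower.

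Translation factors of mitochondrial mRNAs were higher in 6 of 13 cases and lower in 1, with *AEP3* at 1.99. Genes of ubiquinone synthesis were higher in 5 of 11 cases and lower in 4, and *COQ8*, an atypical kinase of the pathway, had the largest difference (-1.74). A list of 8 heme synthesis genes and *CYC3*, the lyase that attaches heme to cytochrome c, had 5 of 9 higher, *CYC3* (0.86) among them, and 2 lower, with *HEM12* at 2.32. Among carriers 4 of 5 were higher and 1 lower, and *AAC3*, the ADP/ATP carrier that is expressed without oxygen, had 194, 220 and 191 normalized counts in *tra1Q3* cells against 19.3, 26.99 and 18.9 in *TRA1* cells (3.31 ± 0.19). The other electron donors were not called in 3 of 3 cases. Of 4 supercomplex factors 0 were higher and 2 lower, with *COX26* at 9866, 9240 and 9041 normalized counts in *tra1Q3* cells against 64891, 53769 and 47023 in *TRA1* cells (-2.46 ± 0.16).

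The mRNAs encoded in mitochondria were counted from poly dT libraries, which capture them poorly, and 6 of 7 passed the filter. All 6 were higher in *tra1Q3* cells at day 3, with log2 fold changes from 1.83 to 3.24. At day 0, 5 of 6 were already higher and 1 was lower, while 35.0% and 33.7% of all genes were. By the interaction 3 of 6 were higher and 0 lower, while 29.7% and 39.0% of all genes were. *COX3* had 161, 576 and 208 normalized counts in *tra1Q3* cells, against 42.9, 38.6 and 24.6 in *TRA1* cells (3.24 ± 0.54, adjusted p = 0.0012). The *tra1Q3* libraries spread widely for this gene but lay above all *TRA1* libraries.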

How the data were processed

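Poly dT RNA-seq libraries of 12 yeast samples were read from 1 table of counts per gene. Per the labels and the study's methods, the authors trimmed reads, aligned them with STAR 2.5.4b to build R64 and counted them with featureCounts 1.6.0, and the deposited counts are not normalized. Read pairs and single reads were summed (single reads 12.5 to 18.1%), and 1 unnamed entry (0.0851% of counts) was left out. Reads were counted without regard to strand, and *ATP1* and *ATP14* overlap another coding sequence. Genotypes were compared within each day in 6 libraries, and age and interaction in a fit of 12, with edgeR 4.0.16 (R 4.3.3; quasi-likelihood, TMM, at least 10 counts in 3 libraries, Benjamini-Hochberg over all genes). Depth was 20662125 to 28079682 counts. On simulated data 99 or 100 of 100 genes changed by a log2 of 1 were recovered in each comparison. The simulation gave every gene and library the same spread and changed only genes with mean counts over 100. It therefore does not measure recovery under the wider spread of the aged *TRA1* libraries. Alternatives were DESeq2 1.42.0, other scalings, no filter, read pairs only, a replicate block, all 12 libraries and leaving out each library. Values in every library are given for isoform pairs, members over 2-fold between genotypes and the extremes of each class at day 3, plus *SDH2*, chosen after its values were seen. Regulators, and in other lists the gene with the largest called difference at day 3, are named. Members and lists were chosen with earlier results of these data known.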

Additional observations from a re-analysis of the deposited data

Results flagged for a closer look

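For 26 members the log2 change with age differed between *tra1Q3* and *TRA1* cells by the interaction test itself (*tra1Q3* minus *TRA1*, edgeR, adjusted p of 0.05 or less). In complex III the differences were 1.43 for *COR1*, 0.27 for *QCR2*, 0.61 for *CYT1*, 0.40 for *RIP1*, 1.01 for *QCR6*, 0.82 for *QCR7*, 1.30 for *QCR8*, 1.24 for *QCR9* and -0.79 for *QCR10*. In complex IV they were -0.70 for *COX5A*, 2.30 for *COX5B*, -0.41 for *COX6* and -1.21 for *COX7*, and *CYC7* of cytochrome c had -0.37. In complex II they were -0.33 for *SDH1*, -0.78 for *SDH2*, -3.58 for *SHH3* and -4.02 for *SHH4*. In the ATP synthase they were 1.30 for *ATP2*, 0.60 for *ATP3*, 0.47 for *ATP4*, 0.78 for *ATP14*, 0.76 for *ATP18* and 0.77 for *INH1*. Among NADH dehydrogenases they were 1.68 for *NDI1* and -3.43 for *NDE2*. The differences of *QCR2*, *COX6* and *CYC7* were each not called when some single library was left out.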

How the results depend on the processing

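No called member changed direction in any alternative. At day 0, 15 members were called in the reported fit and in every alternative and 13 lost the call in at least 1, and the numbers were 14 and 15 at day 3, 38 and 2 for age in *tra1Q3* cells, 36 and 3 for age in *TRA1* cells and 20 and 6 for the interaction. With library totals the medians of the members were -0.14 at day 0, -0.16 at day 3 (10 members higher), 1.30 for age in *tra1Q3* cells, 1.07 for age in *TRA1* cells and -0.18 for the interaction. With the upper quartile they were -0.000382 at day 0 (14 higher), 1.36 for age in *tra1Q3* cells and 0.97 for age in *TRA1* cells. With all 12 libraries in one fit 5 members were higher and 11 lower at day 0, and the day 3 median was 0.042. With *tra1Q3* day 0 replicate 1 alone, chosen after the data were seen, the medians were -0.14 at day 0 and 0.020 for the interaction (6 lower). With read pairs only, the day 0 log2 difference of *NDE1* over *NDE2* was -0.027. The cause of these shifts was not tested.

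Leaving out 1 library at a time gave 8 to 13 members higher, 18 to 20 lower and a median of -0.08 to -0.04 at day 0, and 14 to 19 higher, 10 to 14 lower and 0.041 to 0.18 at day 3. The ranges were 34 to 38, 4 to 4 and 1.19 to 1.26 for age in *tra1Q3* cells, 31 to 35, 5 to 7 and 0.79 to 0.94 for age in *TRA1* cells, and 15 to 19, 8 to 15 and -0.14 to 0.050 for the interaction.

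Samples of the same replicate number did not deviate together (correlations -0.11 to 0.0042), and the reported fits did not pair them. Such correlations cannot tell whether equal numbers mark the same culture. With a replicate block 9 members were higher and 19 lower at day 0, 11 higher and 5 lower at day 3, 35 and 4 for age in *tra1Q3* cells, 32 and 5 for age in *TRA1* cells, and 14 and 7 for the interaction. The members with the lowest counts at day 0, *SHH4*, *NDE2* and *SHH3*, had the largest standard errors there (0.18, 0.16 and 0.15).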
